A study of Miniopterus schreibersii with 14 samples.

Results

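The anterior and posterior parts of S14 limb buds of the bent-wing bat Miniopterus schreibersii were compared, in forelimb and hindlimb separately and together. These are 4 of the 14 libraries of the series, chosen by their labels: anterior forelimb bud, anterior hindlimb bud, posterior forelimb bud and posterior hindlimb bud. The 2 middle libraries of the same buds were left out of the main test of anterior against posterior. They entered the filter on mean score, the fits over the whole axis and descriptions of the middle part. For all 6 the labels name a dissected bud part and a stage, and no genotype or treatment. The other 8 libraries are digits, interdigital tissue and metapodials of later stages. S14 is the label's embryonic stage. Each part had 1 library, and how many embryos it holds, or whether parts share an embryo, the sources used here do not say. The table holds 64618 assembled components, of which 15693 averaged 20 or more in score over the 6 S14 libraries and were kept.

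The limb bud is patterned from its anterior edge, on the thumb or big-toe side, to its posterior edge, on the little-finger side. In vertebrate limb buds a posterior group of cells, the zone of polarizing activity, secretes the protein SHH, which spreads forward, while a repressor form of GLI3 dominates in the anterior part. Other known markers of vertebrate buds are posterior HAND2 and 5′ HOXD genes and anterior ALX4 and PAX9. In bats the posterior digits of the forelimb grow long and carry the wing, and the anteriormost digit stays short and free.

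The table names components by assembly number and pairs none with a gene or a sequence. None of its identifiers matched the RefSeq gene table of this species used here, which lists 22775 genes (0 matches). The components below are therefore described by their values, and which of them stands for a gene named above cannot be told. For the same reason the labelled tissue could not be checked against marker genes. A score is a read count that the authors normalized and rounded, and 1 read was worth a score of 1.60 to 2.23 in the S14 libraries. In these whole-tissue libraries, fewer cells of a type and less RNA per cell cannot be told apart.

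The 6 S14 libraries held 4951055 to 6693330 reads. The anterior forelimb library was the shallowest, at 4951055 reads, against 6427200 in the posterior forelimb library. In the hindlimb, anterior held 6386337 and posterior 6693330 reads.

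Anterior and posterior lay farther apart in the forelimb bud than in the hindlimb bud. Over the 8051 components that averaged 200 or more, the root mean square difference between anterior and posterior on the log2(score + 1) scale was 0.393 in the forelimb. It was 0.205 in the hindlimb, which made this the closest of all 15 pairs of S14 libraries. Counting error alone would give 0.132 and 0.117. The anterior forelimb library was at 0.393 to 0.528 from each of the other 5, and the 4 widest distances all involved it. For the pairs with this library, the shallowest of the 6, counting error alone would give 0.130 to 0.137. The part of depth was not tested.

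**Figure D1:**
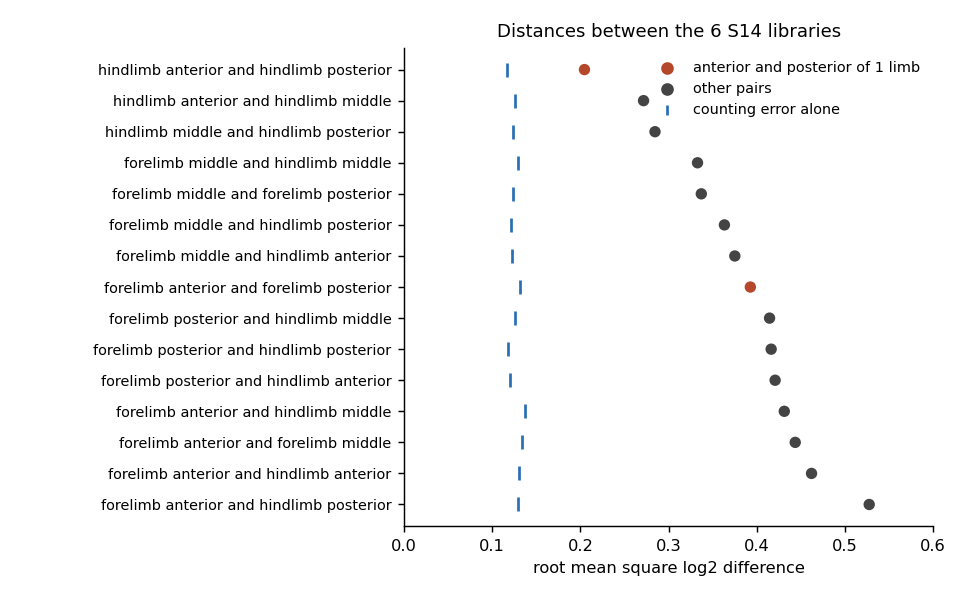
Root mean square log2(score + 1) difference for each of the 15 pairs of S14 libraries over 8051 components (points, with the anterior and posterior pair of each limb in red), and the value that counting error alone would give (blue ticks). Hindlimb anterior and posterior are the closest pair at 0.205, and forelimb anterior and hindlimb posterior the farthest at 0.528.

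The middle libraries did not lie between the outer ones over all these components. In the forelimb, anterior and middle were 0.444 apart and middle and posterior 0.337, against 0.393 for anterior and posterior. In the hindlimb, anterior and middle were 0.272 apart and middle and posterior 0.285, each wider than the 0.205 between anterior and posterior. A step along the bud axis was thus no smaller than the whole length of it in 3 of these 4 neighbouring pairs.

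Differences of at least 2-fold were more frequent in the forelimb. There 1022 of 15693 kept components (6.51%) were at least 2-fold apart, of which 467 (2.98% of those kept) were higher in anterior and 555 (3.54%) higher in posterior. In the hindlimb 393 (2.50%) were, 192 higher in anterior (1.22%) and 201 in posterior (1.28%). The 2 limbs share no library, and their anterior minus posterior differences had a Pearson r of 0.30 across the kept components, as a description, since components are not independent replicates. This r was 0.23 for components with a mean score of 20 to 50 and 0.51 for the most abundant 2454 components, where counting error is smaller.

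Both limbs moved at least 2-fold the same way in 47 components higher in anterior (0.299%) and in 93 higher in posterior (0.593%). Opposite directions past 2-fold in both limbs were seen in 26 components (0.166%), 11 higher in anterior forelimb and posterior hindlimb and 15 the other way round. Of the 140 components that shared the direction, 69 had a mean score under 50, where 1 read weighs most. Past 4-fold in both limbs, 6 components were higher in anterior and 6 in posterior.

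In limma with limb as block, 106 of 15693 components (0.675%) were called between anterior and posterior at an adjusted p under 0.05, 33 higher in anterior (0.21%) and 73 higher in posterior (0.465%). All 106 had the same sign in both limbs, for which the test selects, and 1554 (9.9%) were below 0.05 before adjustment. The 2 limbs are the only repeat of the difference. A component's own spread between limbs gave 1 degree of freedom, against 9.94 from the variance trend shared over components. The adjusted p-values thus rest mostly on that shared variance. An exact permutation test over 2 limbs could not go below 0.5. The count depended on settings: it was 0 with a minimum mean score of 10, with no filter, with upper-quartile scaling and without the limb block, 2 with voom on the reads, 22 after centring each library on its median, 27 with the middle part in the fit and 206 with robust shrinkage. Of 14 named components that were called, 7 were not called with the middle part in the fit: comp9440_c0, comp5771_c0, comp775_c0, comp10916_c0, comp25518_c0, comp5777_c0 and comp22782_c0. From the fit with the middle part, leaving out middle forelimb gave 112 calls and middle hindlimb 99. Leaving out an anterior or posterior library leaves 1 library of that part. Every component then took the shared variance alone, so the counts of those fits cannot be set beside 106 and are not given.

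Called components differed more in the forelimb. Among the 33 higher in anterior, the median log2 difference was 1.79 in the forelimb and 0.93 in the hindlimb, and it was larger in the forelimb in 32 of 33. Among the 73 higher in posterior the medians were -1.84 and -1.08, and the forelimb difference was the larger in 60 of 73. Over all kept components, 63.1% had the larger absolute difference in the forelimb, and the standard deviation was 0.612 there against 0.367 in the hindlimb. The calls were made from these same values, so the counts above describe the selected components only. Fitted log2 differences ran from 0.72 to 4.42 for components higher in anterior and from -5.02 to -0.71 for those higher in posterior.

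**Figure D2:**
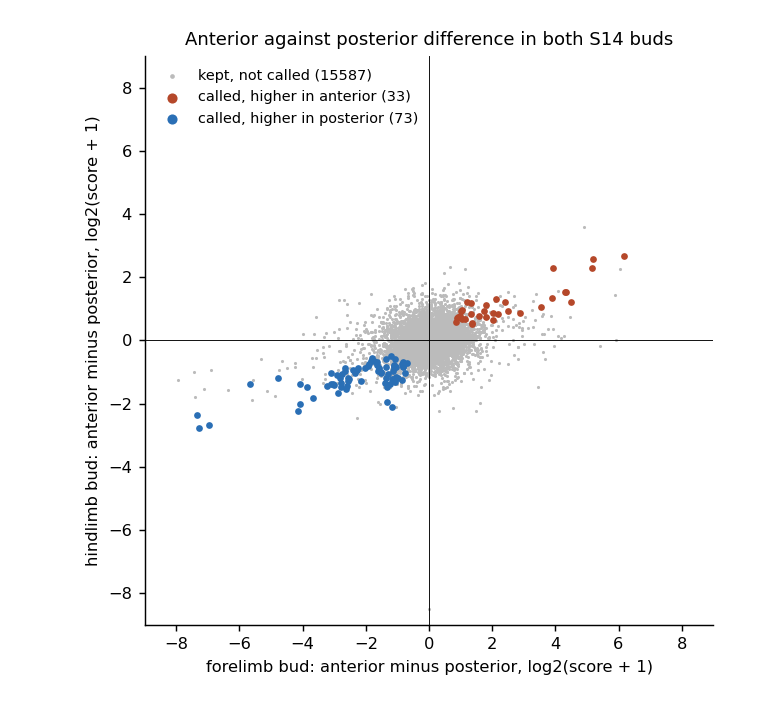
Anterior minus posterior difference on the log2(score + 1) scale in the forelimb bud (x axis) and in the hindlimb bud (y axis) for the 15693 kept components. Called components are red where higher in anterior (33) and blue where higher in posterior (73), and they spread wider along the forelimb axis than along the hindlimb axis.

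Of the components that averaged 200 or more, comp9440_c0 and comp8218_c0 had the widest differences towards anterior in both limbs. Component comp9440_c0 scored 504 in anterior, 11 in middle and 24 in posterior forelimb, and 332, 298 and 114 in the same parts of the hindlimb. In the forelimb it was high in the anterior part alone, while in the hindlimb the middle part stayed near the anterior one. By reads, anterior was 20.9-fold higher than posterior in the forelimb (95% counting interval 12.4 to 38.0) and 2.92-fold in the hindlimb (2.22 to 3.88), and the limma difference was 2.93 (SE 0.47, adjusted p = 0.025).

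Component comp8218_c0 was ordered from anterior to posterior in both limbs. It scored 754, 301 and 50 in anterior, middle and posterior forelimb, and 1067, 979 and 424 in the hindlimb. Every hindlimb part was above its forelimb counterpart. The limma difference between anterior and posterior was 2.61 on the log2 scale (SE 0.41, adjusted p = 0.024). With robust shrinkage neither comp8218_c0 nor comp9440_c0 was called (limma adjusted p = 0.738 and 0.734). With voom neither was called either (adjusted p = 0.178 and 0.166).

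In the opposite direction, comp11247_c0 was low in the anterior part of both limbs and similar in the other two. Its scores in anterior, middle and posterior were 71, 506 and 530 in the forelimb and 77, 225 and 247 in the hindlimb. Anterior was thus nearly the same in both limbs, while the middle and posterior forelimb stood above the hindlimb. The limma difference was -2.28 (SE 0.26, adjusted p = 0.0093).

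Component comp10884_c0 scored 4 in anterior forelimb, 234 in middle and 702 in posterior, and 54, 62 and 160 in the hindlimb. Its 2 anterior forelimb reads stood against 437 posterior ones, with 33 and 100 reads in the hindlimb. The difference was far wider in the forelimb, at -7.14 against -1.55 on the log2 scale, and limma gave an adjusted p of 0.058, so it was not called.

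The lowest p-values towards anterior were those of comp5771_c0 and comp775_c0. Component comp5771_c0 scored 797 in anterior, 170 in middle and 320 in posterior forelimb, and 425, 381 and 186 in the hindlimb. Component comp775_c0 scored 2540, 714 and 1236 in the forelimb and 1612, 1344 and 834 in the hindlimb. Both had their lowest forelimb score in the middle part, so that their forelimb values were not ordered along the axis, while their hindlimb values were in order from high anterior to low posterior. In limma comp5771_c0 differed by 1.25 (SE 0.14) and comp775_c0 by 0.99 (SE 0.12), each with an adjusted p of 0.0093. With the middle part in the fit neither was called (limma adjusted p = 0.350 for comp5771_c0 and 0.316 for comp775_c0).

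Towards posterior, the lowest p-values were those of comp5194_c1 and comp5461_c0. Component comp5194_c1 scored 533, 548 and 1366 in anterior, middle and posterior forelimb and 604, 992 and 1383 in the hindlimb. Component comp5461_c0 scored 337, 230 and 847 in the forelimb and 119, 112 and 461 in the hindlimb. In both limbs comp5461_c0 was high in the posterior part alone, whereas the hindlimb middle of comp5194_c1 lay in between. In limma the differences were -1.27 for comp5194_c1 (SE 0.12, adjusted p = 0.0073) and -1.64 for comp5461_c0 (SE 0.17, adjusted p = 0.0092). A kept component that shares the number of the first, comp5194_c0, had differences of 0.29 in forelimb and 0.01 in hindlimb and was not called.

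**Figure D3:**
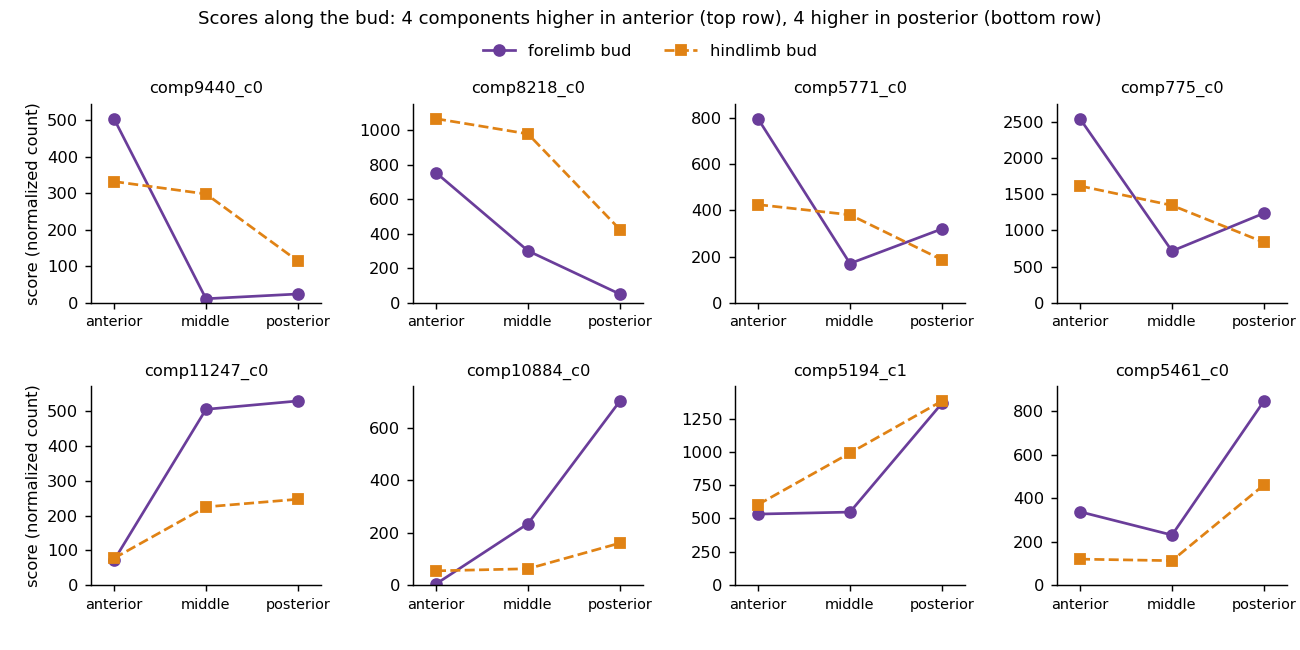
Scores of 8 components in anterior, middle and posterior parts of the forelimb bud (purple) and hindlimb bud (orange), 1 library per point. In each panel of the top row anterior is above posterior in both limbs and in each panel of the bottom row posterior is above anterior, while the middle part takes different places.

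Ranked by the smaller of the differences in the 2 limbs, the first kept components in each direction were scarce ones. Component comp25452_c0 scored 29 in anterior, 110 in middle and 0 in posterior forelimb, and 11, 83 and 0 in the hindlimb. Component comp25518_c0 scored 71, 5 and 0 in the forelimb and 18, 69 and 2 in the hindlimb. In the hindlimb both were highest in the middle part. In the forelimb comp25452_c0 was highest there too, and it passed the filter on mean score only through its middle scores. Both components rest on few reads: comp25452_c0 had 13 anterior forelimb and 7 anterior hindlimb reads, and comp25518_c0 had 32 and 11. A score of 0 in the posterior libraries allows up to 3 reads, a score of 4.82 in forelimb and 4.80 in hindlimb. In limma the adjusted p was 0.058 for comp25452_c0 and 0.045 for comp25518_c0.

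Towards posterior, comp16101_c0 scored 0 in anterior, 0 in middle and 154 in posterior forelimb, and 24, 17 and 170 in the hindlimb. Outside the S14 buds its score was 0 in 7 libraries and 1 in the foot's interdigital tissue. Component comp5777_c0 scored 0, 86 and 125 in the forelimb and 5, 4 and 37 in the hindlimb. The middle forelimb was thus near the posterior forelimb for comp5777_c0 and at 0 for comp16101_c0. In limma the adjusted p was 0.023 for comp16101_c0 and 0.032 for comp5777_c0. The fitted log2 differences, -5.02 and -4.82, depend on the pseudocount, since both components were at 0 in anterior forelimb. Component comp5777_c1, which shares the number of comp5777_c0, had differences of 0.41 and 0.05 in forelimb and hindlimb.

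Whether called components were graded was read from the middle libraries, which the test did not use, though the filter on mean score did. In the forelimb the middle score lay between anterior and posterior for 21 of the 33 components higher in anterior (63.6%) and for 54 of the 73 higher in posterior (74.0%), against 25.5% of all kept components. In the hindlimb it did so for 13 of 33 (39.4%) and 27 of 73 (37.0%), against 26.5% of all kept. A wide difference between the ends leaves more room for a value in between, so the share over all kept components is not matched for size. For components at least 2-fold apart in the forelimb the forelimb share was 64.7% (higher in anterior) and 58.9% (higher in posterior), and for those 2-fold apart in the hindlimb the hindlimb share was 55.2% and 58.2%. The middle part lay in between in both limbs for 5 of 33 (15.2%) and 24 of 73 (32.9%) called components, against 6.66% of all kept. For components at least 2-fold apart in both limbs this share was 21.3% (higher in anterior) and 43.0% (higher in posterior).

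The hindlimb middle exceeded both ends in 13 of the 33 components higher in anterior, a share near that over all kept components, and was below both in 7. Among the 73 higher in posterior it was above both ends in 17 and below both in 29. Over all 15693 kept components it was above both in 6372 and below both in 4769. Over the 192 that were at least 2-fold higher in anterior hindlimb, it was above both in 53 and below both in 29. Over the 201 that were at least 2-fold higher in posterior hindlimb, it was above both in 45 and below both in 34. In the forelimb these numbers were 5 and 5 for components higher in anterior, and for those higher in posterior the middle was above both ends in 11 and below both in 7, against 5725 and 5607 of all kept components. Of the forelimb middle scores in between, 11 were nearer to posterior on the log2 scale and 10 nearer to anterior among components higher in anterior, 37 and 17 among those higher in posterior, and 2310 and 1686 over all kept components.

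**Figure D4:**
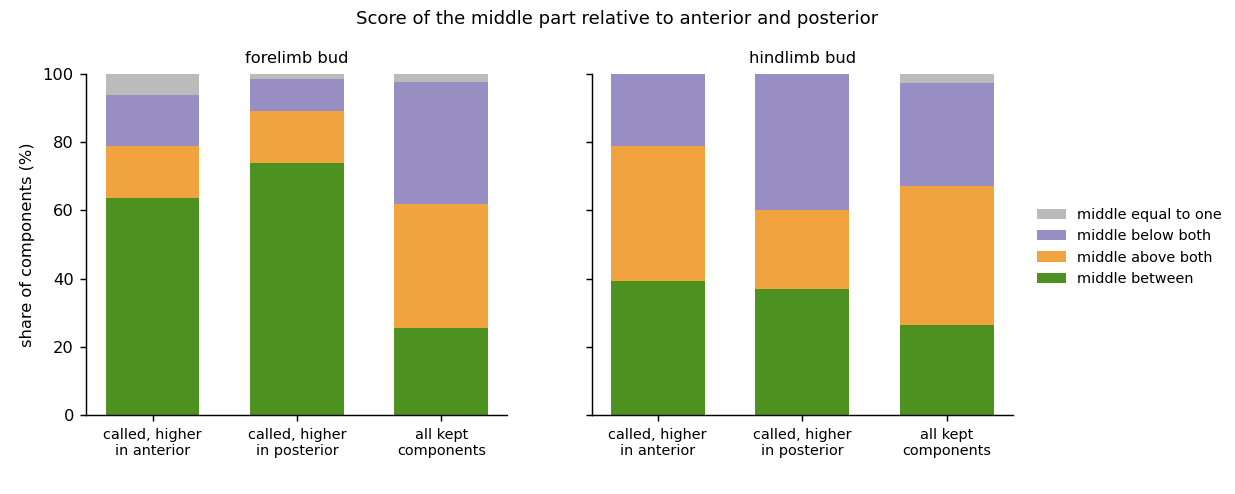
Share of components whose middle score lay between, above or below the anterior and posterior scores, or equalled one of them, in forelimb and hindlimb buds. For called components the middle lay in between in 63.6% and 74.0% in the forelimb and in 39.4% and 37.0% in the hindlimb, against 25.5% and 26.5% of all kept components.

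A linear trend over anterior, middle and posterior in the 6 libraries was called in 0 of 15693 components (0%) by limma, with 694 (4.42%) at an unadjusted p under 0.05 and a smallest adjusted p of 0.586. Voom on recovered reads also called 0, with 685 at an unadjusted p under 0.05. Without the anterior hindlimb library 36 were called, 21 towards anterior and 15 towards posterior, and without any other single library 0. The lowest p-values towards posterior were those of comp10949_c0 and comp14955_c0. Component comp10949_c0 scored 56, 175 and 344 in anterior, middle and posterior forelimb, and 55, 87 and 150 in the hindlimb. Component comp14955_c0 scored 20, 97 and 267, and 28, 44 and 101. Both were ordered in each limb and had like anterior scores in the 2 limbs, with a steeper slope in the forelimb. Their slope per step was -1.01 (SE 0.15) for comp10949_c0 and -1.37 (SE 0.21) for comp14955_c0, each with a limma adjusted p of 0.586.

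Towards anterior, comp8218_c0 described above had the lowest p of the trend, with a slope of 1.30 (SE 0.25), followed by comp10916_c0. Component comp10916_c0 scored 373, 208 and 125 in the forelimb and 275, 248 and 162 in the hindlimb. It was ordered in both limbs, with the larger first step in the forelimb. Both had the same limma adjusted p of 0.586.

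Ordered components were also ranked by the smallest of their log2 steps between neighbouring parts in both limbs. Those with the largest smallest step were again scarce ones, and their steps need not be even. Component comp14678_c0 scored 49, 22 and 16 in anterior, middle and posterior forelimb and 47, 25 and 16 in the hindlimb. Its profile was nearly the same in both limbs. Component comp11260_c0 scored 58, 44 and 24, and 70, 29 and 21. Towards posterior, comp19779_c0 scored 0, 24 and 48 in the forelimb and 21, 37 and 80 in the hindlimb, and comp22782_c0 scored 4, 29 and 88, and 3, 10 and 18. The steps of all 4 rest on scores under 100 in every S14 library, and of the 4 only comp22782_c0 was called between anterior and posterior in limma (adjusted p = 0.042). Counting its posterior scores as 0, comp22782_c0 would not have averaged 20 over the 6 S14 libraries.

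Some components differed along the forelimb bud while their hindlimb ends were alike. Component comp7768_c0 scored 471 in anterior, 139 in middle and 10 in posterior forelimb, and 7, 19 and 8 in the hindlimb. It was graded in the forelimb and low throughout the hindlimb, where 4 anterior and 5 posterior reads leave a ratio of 0.814 with a 95% counting interval of 0.162 to 3.78. Component comp18734_c0 scored 272, 49 and 13 in the forelimb and 135, 169 and 123 in the hindlimb, so that its hindlimb level was even and lay within the forelimb range.

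Towards posterior of the forelimb alone, comp15735_c0 scored 11, 130 and 190 and comp17900_c0 scored 25, 247 and 268. Their hindlimb scores were 101, 75 and 88 for comp15735_c0 and 130, 127 and 173 for comp17900_c0. Both were thus low in the anterior forelimb in particular, the library that stood farthest from the rest.

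In limma the slope along the axis differed between forelimb and hindlimb in 0 of 15693 components (0%), with 201 (1.28%) at an unadjusted p under 0.05, 216 by voom, which also called 0. The smallest adjusted p was 0.44, for comp3018_c0, which scored 143, 583 and 1853 in anterior, middle and posterior forelimb and 472, 660 and 841 in the hindlimb. It was ordered towards posterior in both limbs and steeper in the forelimb, with a slope difference of -1.43 (SE 0.17). Component comp14355_c0 scored 7, 84 and 376, and 62, 67 and 149, with a slope difference of -2.15 (SE 0.37, limma adjusted p = 1). Positive slope differences with the lowest p were found for comp18734_c0 at 2.08 (SE 0.30, limma adjusted p = 0.967) and comp14101_c0 at 1.58 (SE 0.26, limma adjusted p = 1). Component comp14101_c0 scored 297, 155 and 45 in the forelimb and 125, 148 and 173 in the hindlimb, lower in posterior than in anterior in the forelimb and higher in the hindlimb. The count was 5 without anterior hindlimb, 13 without middle hindlimb and 52 without posterior hindlimb, fits with 1 residual degree of freedom.

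Some components differed along the hindlimb bud while their forelimb ends were alike. Component comp13779_c0 scored 62, 57 and 74 in anterior, middle and posterior forelimb against 52, 60 and 18 in the hindlimb. Component comp7484_c0 scored 152, 174 and 117 in the forelimb and 111, 127 and 48 in the hindlimb. In both the posterior hindlimb was the lowest of the 6 libraries. Towards posterior, comp16026_c0 scored 89, 35 and 71 in the forelimb and 15, 27 and 75 in the hindlimb. Component comp25454_c0 had a score of 360, from 225 reads, in the posterior hindlimb and 0 in the other 13 libraries of the series. Its difference belongs to a single library.

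Opposite directions in the limbs were seen in comp3518_c0, which scored 190, 384 and 61 in anterior, middle and posterior forelimb and 68, 298 and 269 in the hindlimb. In both limbs the middle part was the highest. Component comp7248_c0 scored 192, 79 and 51 in the forelimb and 7, 12 and 18 in the hindlimb, where 4 and 11 reads leave a ratio of 0.370 with a 95% counting interval of 0.0859 to 1.25. In the other direction comp10701_c0 scored 42, 4 and 154 in the forelimb and 208, 42 and 74 in the hindlimb, and comp369_c0 scored 27, 35 and 129, and 261, 67 and 115. Both were lower in the middle than in either end of the hindlimb. In limma none of these 4 had a slope difference that passed, each with an adjusted p of 1.

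The buds were followed to the S15-17 forelimb, in libraries that neither the calls nor the selection of components used. There, digit I and the neighbouring interdigital tissue I-II lie on the anterior side, and the parts of digits II-V lie posterior to it. Of the 33 components called higher in the anterior bud, 25 (75.8%) scored higher in digit I than in digits II-V, against 48.5% of all kept components. In interdigital tissue 26 (78.8%) were higher in I-II than in II-V, against 51.8%. Both held for 21 of 33 (63.6%, against 29.9%), and the median log2 differences were 0.57 in digits and 0.64 in interdigital tissue, against 0.00 and 0.02 over all kept components. In groups set by fold alone these shares were lower. For components at least 2-fold higher in anterior in both limbs, the digit share was 55.3%. It was 53.5% for those 2-fold higher in the anterior forelimb and 42.2% for the anterior hindlimb. The interdigital shares of these groups were 68.1%, 70.0% and 57.8%.

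For components called higher in the posterior bud the shares lay on the other side of those over all kept components. Of these 73, 55 (75.3%) scored lower in digit I than in digits II-V, against 50.1% of all kept components. In interdigital tissue 46 (63.0%) scored lower in I-II than in II-V, against 46.6%. Both held for 38 (52.1%, against 27.9%). For components at least 2-fold higher in posterior in both limbs, 72.0% were lower in digit I. This share was 63.1% for those 2-fold higher in the posterior forelimb and 65.7% for the posterior hindlimb. In interdigital tissue the shares of these groups were 58.1%, 53.0% and 51.7%. At least 2-fold in both tissues, 6 of the 33 were higher on the thumb side (18.2%, against 0.663%) and 13 of the 73 lower (17.8%, against 0.548%). In the opposite direction, 2 of the 33 were lower (6.06%, against 0.548%) and 2 of the 73 higher (2.74%, against 0.663%). At this threshold components 2-fold apart in both limbs had larger shares than the called ones. Of the 47 higher in anterior 10 were higher on the thumb side (21.3%) and 1 lower. Of the 93 higher in posterior 22 were lower (23.7%) and 0 higher. These shares were not tested, since each later part has 1 library and components are not replicates.

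**Figure D5:**
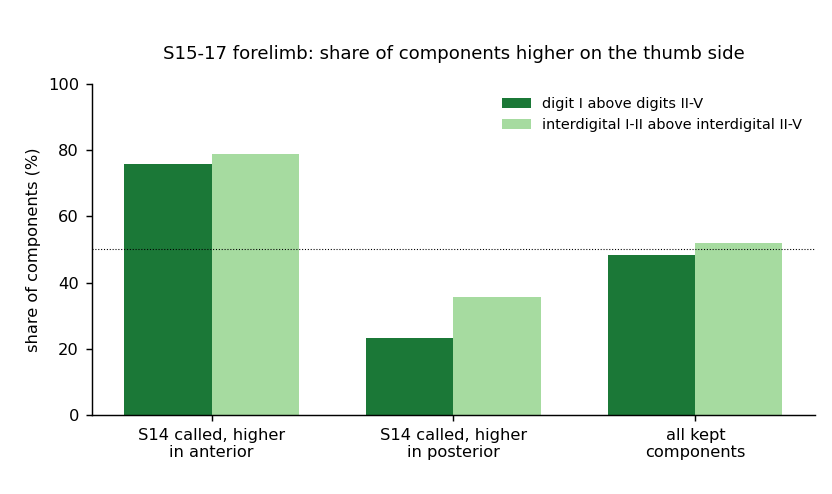
Share of components with a higher score in digit I than in digits II-V (dark) and in interdigital tissue I-II than in II-V (light) of the S15-17 forelimb. Of components called higher in the anterior S14 bud 75.8% and 78.8% were higher on the thumb side, of those called higher in the posterior bud 23.3% and 35.6%, and of all kept components 48.5% and 51.8%.

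Single named components took different courses. Component comp9440_c0, which at S14 was high in the anterior forelimb, scored 705 in the first digit and 643 in the tissue next to it, against 64 and 26 in the matched parts of digits II-V. For comp7768_c0, which differed along the forelimb bud alone and was not called, the same scores were 244 and 299 against 78 and 28. Component comp8218_c0, which was called, was low in all of them, at 111 and 72 against 96 and 59, so that its S14 difference had no later counterpart of like size. Of the components higher in posterior forelimb, comp15735_c0, which was not called, scored 9 and 27 on the thumb side against 47 and 53. The called component comp11247_c0 scored 523 and 250 against 504 and 218 and no longer differed by 2-fold.

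Across all kept components the forelimb bud difference had a Pearson r of 0.16 with digit I minus digits II-V and of 0.18 with interdigital I-II minus II-V. For the hindlimb bud difference r was 0.02 and 0.10. These are descriptions across 15693 components that share library depth within each side, and the later libraries were those of the forelimb.

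Called components also differed between the limbs in the middle part, which was not in the test, though it was in the filter. Of the 33 higher in anterior, 8 (24.2%) scored higher in the forelimb middle than in the hindlimb middle, against 42.6% of all kept components, with a median log2 difference of -0.58. Of the 73 higher in posterior, 47 (64.4%) did, with a median of 0.33. Over all kept components the median was -0.05. These shares were not tested either.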

How the data were processed

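Messenger RNA of 14 dissected autopod parts was sequenced, 1 library per part. Per the labels' protocols, DNase-treated total RNA went into TruSeq libraries. CASAVA 1.8, RSEM and edgeR appear in the submitters' processing notes, with no role or order. The sources used here do not say how components were assembled or whether counting used strand. The deposited values are scores: counts that the authors normalized and rounded to whole numbers. Low scores of a library were all rounded multiples of the score of 1 read. Dividing by it recovered whole reads (tolerance 0.5 score), which matched 99.98% to 100% of nonzero scores. They gave depths, 95% Clopper-Pearson counting intervals and a floor of 3 reads, which cover counting error only, and input to limma voom.

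Kept were components that averaged 20 or more over the 6 S14 libraries (15693, with 98.7% of the S14 score). A total of 357 lay at 20 to 22 and 439, not kept, at 18 to 20. Tests were run in limma 3.58.1 (R 4.3.3) on log2(score + 1) with variance shrunk to a trend on the mean, two-sided, Benjamini-Hochberg over kept components, called under 0.05. Fold changes on this scale understate those of scarce components. Anterior against posterior used 4 libraries with limb as block, the trend and the slope difference all 6. The tests were tried on simulated data. At most 2 components per direction were named by fixed rules: widest difference in both limbs, the same at a mean of at least 200, largest smallest step between neighbouring parts, forelimb alone or hindlimb alone (other limb under 0.5), opposite limbs (these 3 at a mean of at least 50), and lowest p per test. Named after their values were seen were comp5194_c0 and comp5777_c1. The rules and tests were chosen with earlier results of these data known. Python 3.11.15 was used for the rest.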

Additional observations from a re-analysis of the deposited data

How the results depend on the processing

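The count of 106 components called between anterior and posterior was 0 with a minimum mean score of 10, with no filter, with upper-quartile scaling and with no limb block, 2 with voom, 22 with median-centred libraries, 27 with the middle part in the fit, 206 with robust shrinkage, and 195 and 198 with minimum mean scores of 30 and 50, which were chosen after seeing the data. It was 84 and 119 with pseudocounts of 0.25 and 5 and 104 with a minimum of 15, also chosen after seeing the data; these fits called 83, 106 and 103 of the same 106 components in the same direction, against 66 under robust shrinkage, 103 at a minimum of 30 and 98 at 50. With the middle part in the fit and 1 library left out, 47 to 513 were called (58 without anterior forelimb, 235 without posterior hindlimb). The cause of these changes was not tested. The number tested also changed with the filter, from 15693 in the main fit. It was 59736 with no filter and 18957, 16945, 14198 and 12434 with minimums of 10, 15, 30 and 50. Each limb alone leaves 1 library against 1 and no test.

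The trend count of 0 stayed 0 in the alternatives other than leaving out a library, which gave 0 to 36, and the slope difference gave 0 likewise and 0 to 52. Past 2-fold towards anterior in both limbs were 47 of 15693 components. They were 119 of 18957 with a minimum of 10, 18 of 12434 with a minimum of 50 and 2478 of 59736 with no filter. Of the 15693 they were 232 at 1.5-fold, 6 at 4-fold, 467 in the forelimb alone and 192 in the hindlimb alone. For posterior, over the same totals, 93 became 144, 53, 2603, 276, 6, 555 and 201.

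Of the named components, 14 were called between anterior and posterior. All 14 lost their call with a minimum of 10, no filter, upper-quartile scaling and no limb block, 12 with voom, 8 with median-centred libraries, 7 with the middle part in the fit, 4 with robust shrinkage, 2 with a pseudocount of 0.25 and 1 with a minimum of 15. The 4 under robust shrinkage were comp8218_c0, comp9440_c0, comp16101_c0 and comp5777_c0. With the middle part in the fit, all 14 were called without middle forelimb, and all 14 without middle hindlimb. Calls without an anterior or posterior library are not given, for the reason above. With 1 library left out, the slope difference changed sign or went to 0 for 6 components: it ran from -5.69 to 2.37 for comp10701_c0 and from -0.027 to 3.62 for comp3518_c0 (2.37 and -0.027 without posterior forelimb), from -3.05 to 0.087 for comp17900_c0 (without anterior forelimb), and, without posterior hindlimb, from -1.81 to 0.077 for comp13779_c0, from -1.20 to 0.38 for comp7484_c0 and from 0 to 8.50 for comp25454_c0. The labels give no replicate numbers; the fit for anterior against posterior is paired by limb, and its count without that block is the 0 given above.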

Other observations

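The share of components whose level differed between stages was larger among those called along the S14 axis than over all kept components. Between the mean of the 6 S15-17 libraries and that of the 6 S14 libraries, 39.4% of the 33 components higher in anterior and 49.3% of the 73 higher in posterior differed at least 2-fold on the log2 scale, against 9.69% of all kept components. Of the 33, 4 were higher and 9 lower at S15-17, and of the 73, 12 were higher and 24 lower. In groups set by fold alone, higher in anterior and in posterior, the shares were 42.6% and 51.6% for 2-fold in both limbs. They were 34.9% and 29.4% for the forelimb and 26.0% and 38.3% for the hindlimb. A larger share was thus not particular to the called components, and the S14 mean holds the scores that made the calls. In fetal metapodials 18 of the 33 (54.5%) and 33 of the 73 (45.2%) were at least 2-fold lower than at S14, against 32.0% of all kept components, and 5 and 15 were at least 2-fold higher (15.2% and 20.5%, against 14.3%). For components 2-fold apart in both limbs, 46.8% and 40.9% were lower and 25.5% and 25.8% higher. The dissected parts differ between stages, so stage and dissection cannot be told apart, and these shares were not tested.

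Of the 106 called components, 4 had another kept component of the same assembly number. None of those 4 others was called, and 1 of them had the direction of its called counterpart in both limbs. The sources used here do not say what a shared number means.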
